A study of Mus musculus with 4 samples.

Results

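The 10 genes described here encode the enzymes and regulators that build fatty acids from cytosolic citrate and place the first double bond in them. They are Acly, Acaca, Acacb, Fasn, Elovl6, Scd1, Scd2, Me1, Thrsp and Srebf1, taken by symbol from the 21958 gene rows of a table of mouse ovary RNA sequencing. All 10 were found and all 10 passed the filter on low counts. RNA was measured in 4 libraries. OxtrTg (replicates 3 and 4) came from mice that carry extra expression of Oxtr, the oxytocin receptor gene, and WT (replicates 5 and 6) from wild-type mice, all females in diestrus. The promoter that drives the transgene, the number of founder lines, the strain and the age are left unstated by the labels. The labels give ovary as the tissue of all 4 libraries, while the RNA extraction text names white adipose tissue, a tissue in which these genes are abundant. The genes were selected on their role in the pathway and on their levels in OxtrTg against WT in these same libraries, so those values are a description. Counts of calls are given for them beside the share over all genes, with nothing read from them.

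Fatty acid synthesis begins when ATP citrate lyase (Acly) splits citrate into acetyl-CoA, which acetyl-CoA carboxylase (Acaca in the cytosol, Acacb at the mitochondrial outer membrane) turns into malonyl-CoA. Fatty acid synthase (Fasn) joins these units into palmitate with NADPH that malic enzyme (Me1) helps to supply. Elovl6 then lengthens palmitate to stearate, and the stearoyl-CoA desaturases Scd1 and Scd2 convert saturated chains to palmitoleate and oleate. Srebf1 encodes the transcription factor SREBP-1, which drives many of these genes in liver and fat, and Thrsp encodes Spot 14, a small lipogenic protein of fat, liver and mammary gland. In mice Scd1 is the main desaturase of liver and fat, while Scd2 is widely expressed, in brain above all.

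Scd1, Thrsp, Fasn and Acaca had the largest differences, each with more transcript in either OxtrTg library than in any WT library. Acly and Srebf1 were also higher in both OxtrTg libraries, by a smaller margin, while Scd2, Acacb, Me1 and Elovl6 overlapped between the genotypes. The log2 difference (OxtrTg minus WT, from the counts with TMM scaling) was at least 1 for 4 of the 10 genes, beside 2.28% of the 15311 genes tested, and at most -1 for 0 of them, beside 2.14%. The lower OxtrTg library exceeded the higher WT library for 6 of the 10 genes, beside 14.5% of all genes tested, and the reverse held for 0, beside 11.7%. The median log2 difference was 0.37 over the 10 genes and -0.0033 over all genes tested. edgeR's quasi-likelihood test called 0 of the 10 after adjustment over all genes, as it called 0% of all genes in either direction. At an unadjusted p under 0.05 it had 4 of the 10 higher, beside 2.12% of all genes, and 0 lower, beside 0.451%. DESeq2 called the same 4, Scd1, Thrsp, Fasn and Acaca, higher, beside 0.431% of all genes, and 0 lower, beside 0.0196%. A whole ovary is a mixture, and fewer cells of a type cannot be told apart from less RNA per cell.

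**Figure D1:**
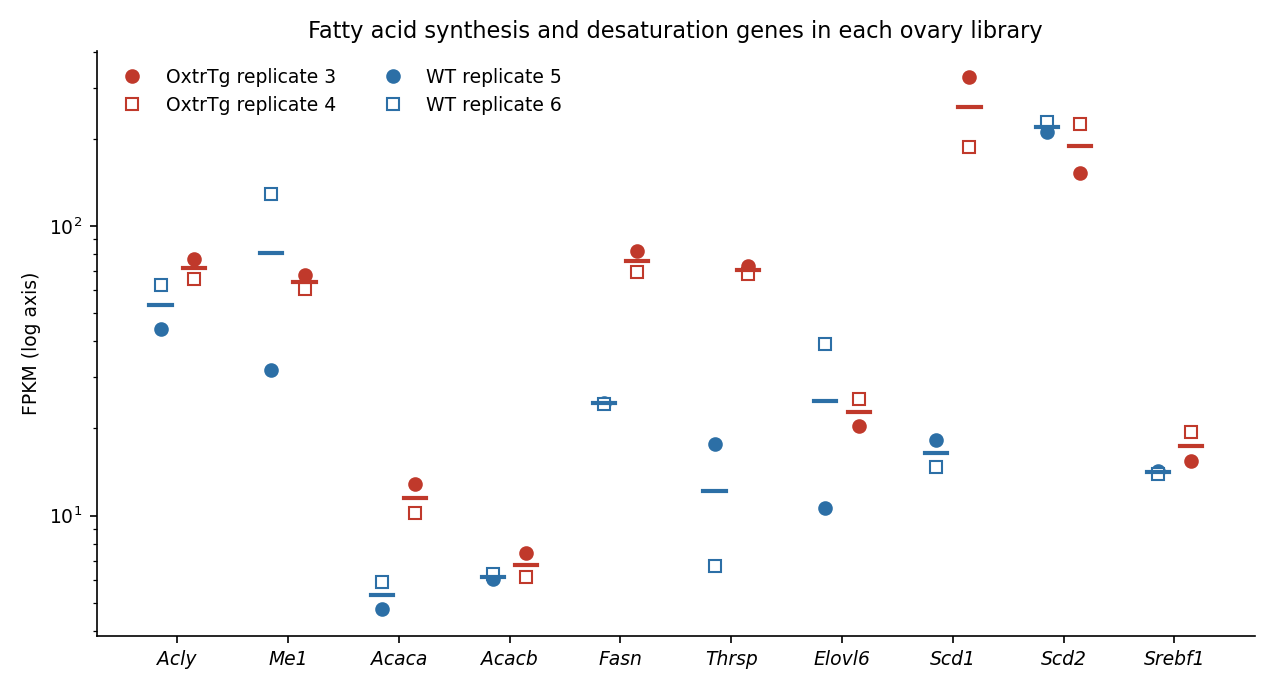
FPKM (log axis) of the 10 genes in each library, WT in blue and OxtrTg in red, with a bar at the mean of each group (n = 2). For Scd1 the OxtrTg libraries stood at 326 and 188 FPKM and the WT libraries at 18.3 and 14.7, while for Me1 and Elovl6 the WT libraries lay on either side of the OxtrTg libraries.

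Libraries held 15229810 to 16517764 counts. Markers of ovarian cells were detected in every library: the summed level of 8 granulosa cell markers was 4109 to 5904 CPM (counts scaled to library size, with TMM), and that of 7 oocyte markers 355 to 708. A library of each genotype stood apart. OxtrTg replicate 3 had 33.3 CPM summed over 6 oviduct epithelium markers, where the others had 955 to 2989, and WT replicate 6 had 9279 CPM over 8 theca and luteal markers, where the others had 2291 to 2541. The oxytocin receptor gene Oxtr was at 23.2 and 32.9 FPKM in OxtrTg replicates 3 and 4 and at 6.21 and 11.5 in WT replicates 5 and 6, in the order the labels give. The summed level of 15 adipocyte markers was 2952 and 2181 CPM in the OxtrTg libraries against 497 and 602 in the WT libraries, a ratio of 4.67. All 15 had a positive log2 difference, and none was at 0 in any library. Of these, 14 were higher in OxtrTg without overlap, beside 14.5% of all genes tested. Adipoq, the gene of adiponectin, was at 83.4 and 46.6 FPKM in OxtrTg and at 6.18 and 5.58 in WT. The summed level of 6 brown adipocyte markers stood at 39.6 and 60.1 CPM (OxtrTg) against 33.8 and 43.1 CPM (WT). Most of it was Dio2, a deiodinase gene that other cells also express, at 36.8 and 48.8 against 27.4 and 35.3 CPM, while Ucp1, the gene of uncoupling protein, had 0 and 1 counts in OxtrTg and 2 and 0 in WT. Elovl3 also had a library at 0 in each genotype. The part that fat cells have in the differences described here was not tested.

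Acly, which makes the acetyl-CoA for the pathway, was abundant in all libraries. Its level was 77.0 and 65.7 FPKM (counts scaled to gene length and library total) in OxtrTg replicates 3 and 4, and 44.0 and 62.5 in WT replicates 5 and 6. The groups did not overlap, but OxtrTg replicate 4 and WT replicate 6 lay close together. The log2 difference was 0.43 ± 0.22 (SE), 0.18 without WT replicate 5 and 0.73 without WT replicate 6. Me1, the cytosolic malic enzyme, was at 67.8 and 60.7 FPKM in OxtrTg and at 31.8 and 129 in WT, so the WT libraries enclosed the OxtrTg libraries. Its WT libraries differed from each other by 4.19-fold, the widest gap between replicates among the 10 genes. Its log2 difference was -0.33 ± 0.69 (SE) with all libraries and 1.05 without WT replicate 6, the library with the high theca and luteal markers. DESeq2 called it lower in OxtrTg without WT replicate 5 (log2 difference -1.03) and higher without WT replicate 6 (1.04).

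Fasn, which carries out all steps of palmitate synthesis on one protein chain, separated the genotypes with little spread. It was at 82.1 and 69.6 FPKM in OxtrTg and at 24.42 and 24.37 in WT. Both OxtrTg libraries were far above a nearly constant WT level, with means of 75.8 ± 8.82 and 24.4 ± 0.034 FPKM (SD, n = 2 each). The log2 difference was 1.65 ± 0.14 (SE), and 1.55 to 1.73 with each library left out in turn. Thrsp, or Spot 14, was at 73.0 and 68.4 FPKM in OxtrTg, and at 17.7 and 6.72 in WT. The OxtrTg libraries agreed closely, within 1.03-fold, and the WT libraries differed by 2.55-fold, with the lower level in WT replicate 6. Its log2 difference was 2.55 ± 0.48 (SE), from 2.03 without WT replicate 6 to 3.38 without WT replicate 5.

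Promoter sequences are shown for Fasn and Thrsp, which were higher together in OxtrTg, and for 2 genes that differed little, the regulator Srebf1 and the carboxylase Acacb. Each is the 250 bases before a RefSeq start on the GRCm38.p6 build. They lie at chr11:120824548-120824797 (Fasn, minus strand), chr7:97417551-97417800 (Thrsp, minus), chr11:60210472-60210721 (Srebf1, minus, the most downstream of 3 starts listed) and chr5:114165268-114165517 (Acacb, plus). Capitals mark CCAAT in either orientation (CCAAT or ATTGG) and TATAAA.
Fasn: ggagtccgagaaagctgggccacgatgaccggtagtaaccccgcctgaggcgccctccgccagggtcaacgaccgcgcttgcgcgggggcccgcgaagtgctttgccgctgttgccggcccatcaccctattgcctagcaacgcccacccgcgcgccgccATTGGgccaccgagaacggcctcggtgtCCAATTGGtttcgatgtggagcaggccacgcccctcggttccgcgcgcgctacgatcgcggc
Thrsp: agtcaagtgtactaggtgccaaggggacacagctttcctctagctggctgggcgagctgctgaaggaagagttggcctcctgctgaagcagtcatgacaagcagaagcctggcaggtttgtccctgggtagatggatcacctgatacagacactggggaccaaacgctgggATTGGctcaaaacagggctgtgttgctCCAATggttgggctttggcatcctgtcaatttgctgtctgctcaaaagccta
Srebf1: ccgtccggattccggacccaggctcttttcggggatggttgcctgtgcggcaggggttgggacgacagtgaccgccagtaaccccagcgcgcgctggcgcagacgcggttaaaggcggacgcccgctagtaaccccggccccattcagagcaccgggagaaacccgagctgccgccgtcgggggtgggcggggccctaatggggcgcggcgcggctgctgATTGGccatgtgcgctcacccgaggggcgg
Acacb: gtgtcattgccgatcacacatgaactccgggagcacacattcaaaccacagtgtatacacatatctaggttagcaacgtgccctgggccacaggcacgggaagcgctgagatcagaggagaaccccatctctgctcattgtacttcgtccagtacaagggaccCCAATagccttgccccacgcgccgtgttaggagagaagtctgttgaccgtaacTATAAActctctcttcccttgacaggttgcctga
Fasn held CCAAT motifs from -90 to -86, -62 to -58 and -59 to -55, counted back from the start, of which the last 2 overlap in the palindrome CCAATTGG. Thrsp held 2, from -79 to -75 and from -52 to -48, while the Srebf1 and Acacb promoters shown held 1 each. The RefSeq table had promoters for 8 of the 10 genes, 11 in all. It had none for Scd1 and Scd2, so the motif searches do not cover them. A CCAAT motif was found in 6 of the 11, from 5 genes: Acacb, Fasn, Me1, Srebf1 and Thrsp. The Acaca, Acly and Elovl6 promoters held no CCAAT motif, although Acaca too was well above WT in OxtrTg. Whether the motif goes with the differences was not tested. Of all 32851 promoters of that length, 33.9% held the motif. TATAAA was found for Acacb alone among the 8 genes and in 12.4% of all promoters. The sterol response element TCACNCCAC and the E-box CACGTG, searched on both strands, were found in none of the 11, and in 1.05% and 6.02% of all promoters. The 11 promoters ranged from 39.2% to 72.0% in GC content, beside a median of 52.4% over all promoters. These are matches of letters and not measured binding sites.

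The paired carboxylase genes differed in unequal measure. Acaca, whose product feeds malonyl-CoA to Fasn, was at 12.8 and 10.2 FPKM in OxtrTg and at 4.76 and 5.91 in WT, so that OxtrTg was well above WT without overlap. This gave a log2 difference of 1.12 ± 0.18 (SE), and 0.94 to 1.30 with each library left out. DESeq2 no longer called it without OxtrTg replicate 3 or without WT replicate 5. Acacb, whose malonyl-CoA restrains fatty acid entry into mitochondria, was at 7.44 and 6.13 FPKM in OxtrTg and at 6.04 and 6.28 in WT. OxtrTg replicate 4 lay between the WT libraries, and the log2 difference was 0.15 ± 0.13 (SE).

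As a share of the FPKM of both carboxylase genes, Acaca took 63.3% and 62.5% in OxtrTg and 44.1% and 48.5% in WT. Their exact 95% Clopper-Pearson intervals, computed on the counts and converted for gene length, were 61.7% to 64.9%, 60.7% to 64.3%, 42.0% to 46.2% and 46.5% to 50.5% in that order. By FPKM, Acaca was thus the more abundant of the pair in the OxtrTg libraries and Acacb in the WT libraries. In WT replicate 6 the interval included an equal share. The WT order rests on the gene lengths of the table, 17074 bases for Acaca and 9632 for Acacb. In counts Acaca exceeded Acacb in WT too, at 1343 against 961 (replicate 5) and 1626 against 974 (replicate 6). Whether that length for Acaca suits the transcripts present was not tested. The log2 ratio of Acaca to Acacb counts was 1.59 ± 0.035 in OxtrTg and 0.61 ± 0.18 in WT (SD, n = 2 each), a difference of 0.98. Of 10173 distinct stretches of 31 bases in the GENCODE M21 transcripts of Acaca, 0 occurred in those of Acacb, so that reads of this length can be told apart.

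The desaturase genes showed the widest contrast. Scd1 was at 326 and 188 FPKM in OxtrTg replicates 3 and 4, and at 18.3 and 14.7 in WT replicates 5 and 6. The lower OxtrTg library was still above both WT libraries by a wide margin, and the 2 OxtrTg libraries differed from each other by 1.67-fold, the widest gap within OxtrTg among the 10 genes. The log2 difference was 3.97 ± 0.33 (SE), and 3.55 to 4.29 with each library left out in turn. Scd2 was at 152 and 225 FPKM in OxtrTg and at 210 and 229 in WT. OxtrTg replicate 3 was the lowest library and OxtrTg replicate 4 lay between the WT libraries. The log2 difference was -0.21 ± 0.26 (SE), and it turned to 0.068 without OxtrTg replicate 3.

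Scd1 took 68.1% and 45.5% of the FPKM of the pair in OxtrTg and 8.0% and 6.0% in WT. The exact 95% intervals were 67.7% to 68.6% and 45.0% to 46.1% in OxtrTg, and 7.62% to 8.40% and 5.69% to 6.36% in WT, and like all intervals here they cover counting error only. Scd2 was thus by far the main desaturase transcript of the pair in WT, while in OxtrTg the order differed between libraries, with Scd1 ahead in replicate 3 and Scd2 ahead in replicate 4. The summed level of both genes was 478 and 413 FPKM in OxtrTg and 229 and 244 in WT, a ratio of group means of 1.89. The log2 ratio of Scd1 to Scd2 counts was 0.26 ± 0.96 in OxtrTg and -3.90 ± 0.31 in WT (SD, n = 2 each), a difference of 4.16. It was 3.48 without OxtrTg replicate 3 and 4.84 without OxtrTg replicate 4. The pair shares sequence: 5.19% of the 31-base stretches of Scd1 transcripts, and 3.0% of those of 50 bases, also occur in Scd2. Of the Scd2 stretches, 4.65% and 2.68% also occur in Scd1. Some reads could thus be assigned to either gene. In WT, Scd2 had 18974 and 20177 counts against 1478 and 1157 for Scd1, so shared reads could weigh more on the low Scd1 level there. How such reads were assigned is not given, and their part in the Scd1 levels was not tested. Scd3 and Scd4, the neighbouring family members, were at 0.148 to 0.579 and 0.181 to 0.401 FPKM.

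**Figure D2:**
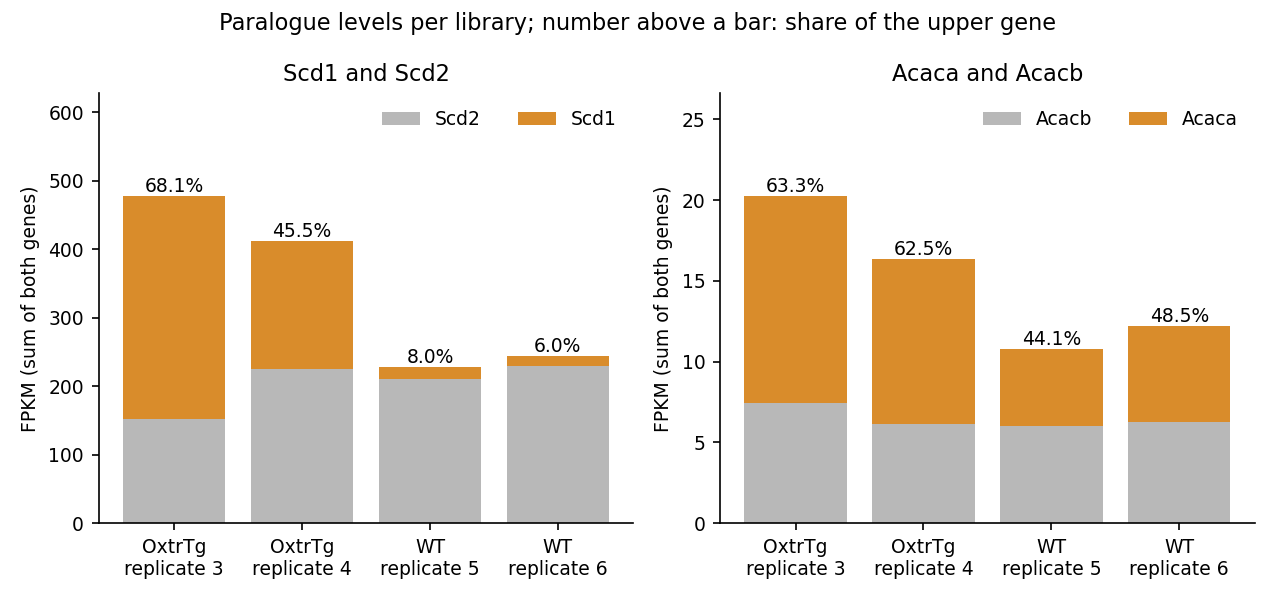
Stacked bars give the FPKM of Scd2 and Scd1 (left) and of Acacb and Acaca (right) in each library, and the number above a bar is the share of the upper gene. The Scd1 share was 68.1% and 45.5% in OxtrTg and 8.0% and 6.0% in WT, and Acaca took 63.3% and 62.5% against 44.1% and 48.5%.

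Elovl6, the elongase between palmitate and stearate, was at 20.5 and 25.3 FPKM in OxtrTg and at 10.6 and 39.3 in WT. As for Me1, the WT libraries enclosed the OxtrTg libraries, with WT replicate 6 the highest of all. The log2 difference was -0.12 ± 0.65 (SE), 0.041 without OxtrTg replicate 3 and 1.14 without WT replicate 6. Srebf1 was at 15.4 and 19.4 FPKM in OxtrTg and at 14.3 and 14.0 in WT. OxtrTg exceeded WT without overlap, though by little in replicate 3, and the log2 difference was 0.32 ± 0.16 (SE). It was 0.11 without OxtrTg replicate 4 and 0.50 without OxtrTg replicate 3. The gene counts do not separate the SREBP-1a and SREBP-1c transcripts, nor do they measure the cleaved, active protein.

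By level per length, Scd2 led in WT at 220 ± 13.5 FPKM (SD, n = 2), ahead of Me1, Acly, Elovl6, Fasn, Scd1, Srebf1, Thrsp, Acacb and Acaca. Among neighbours in that order Me1 overlapped with Acly, Elovl6 with Fasn, and Srebf1 with Thrsp. In OxtrTg the order was Scd1, Scd2, Fasn, Acly, Thrsp, Me1, Elovl6, Srebf1, Acaca and Acacb. Among neighbours there, Scd1 overlapped with Scd2, Fasn with Acly, and Acly with Thrsp. By mean FPKM, Scd1 thus stood sixth in WT and first in OxtrTg. Acacb and Acaca exchanged the last places, an order that rests on the gene lengths of the table. Genes further apart in the order could overlap too, as Scd1 did with Elovl6 and Thrsp in WT and Fasn with Thrsp in OxtrTg. Together the 10 genes took 0.466% and 0.414% of all counts in OxtrTg and 0.219% and 0.293% in WT.

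Levels of the genes were set beside the adipocyte sum and the theca and luteal sum across the libraries, and whether they follow either was not tested. Relative to WT replicate 5, the sum of adipocyte markers was higher in both OxtrTg libraries and close to level in WT replicate 6. Fasn and Acaca likewise differed by only 1.03-fold and 1.28-fold between the WT libraries, while Thrsp was lower in WT replicate 6. The sum of theca and luteal markers was high in WT replicate 6 alone, where Me1 and Elovl6 also had their highest level, together with Idh1, a cytosolic source of NADPH, at 278 FPKM against 63.6 to 84.7 elsewhere. Acly was instead highest in OxtrTg replicate 3, at 401 CPM against 333 in WT replicate 6. Scd2 was about level between OxtrTg replicate 4 and WT replicate 6, at 1256 and 1267 CPM. Scaled to the adipocyte marker sum of the same library (CPM over CPM), Scd1 amounted to 53.3% and 43.1% in OxtrTg and 17.7% and 12.1% in WT. Fasn amounted to 30.0% and 35.7% in OxtrTg and to 52.8% and 44.8% in WT, and Acaca to 7.32% and 8.17% against 16.1% and 16.9%. Thrsp, at 5.34% and 7.03% against 7.65% and 2.47%, overlapped. These scaled values depend on the markers used. With each of the 15 markers singly in place of the sum, a choice made after the data were seen, Scd1 was higher in OxtrTg without overlap for 14 markers and overlapped for 1, Retn, where it was 23.5 and 24.0 times the marker in OxtrTg and 18.7 and 25.2 times in WT. The size of the Scd1 difference varied widely with the marker. As a log2 ratio (OxtrTg minus WT) it was smallest with Retn (0.13), Lep (0.21), Car3 (0.50) and Adipoq (0.51). It was largest with Pparg (3.44) and Cebpa (3.53). Fasn was higher for 4 and lower for 9 of the 15, and Acaca higher for 2 and lower for 10. What share of each transcript came from fat cells, theca cells or luteal cells was not tested.

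**Figure D3:**
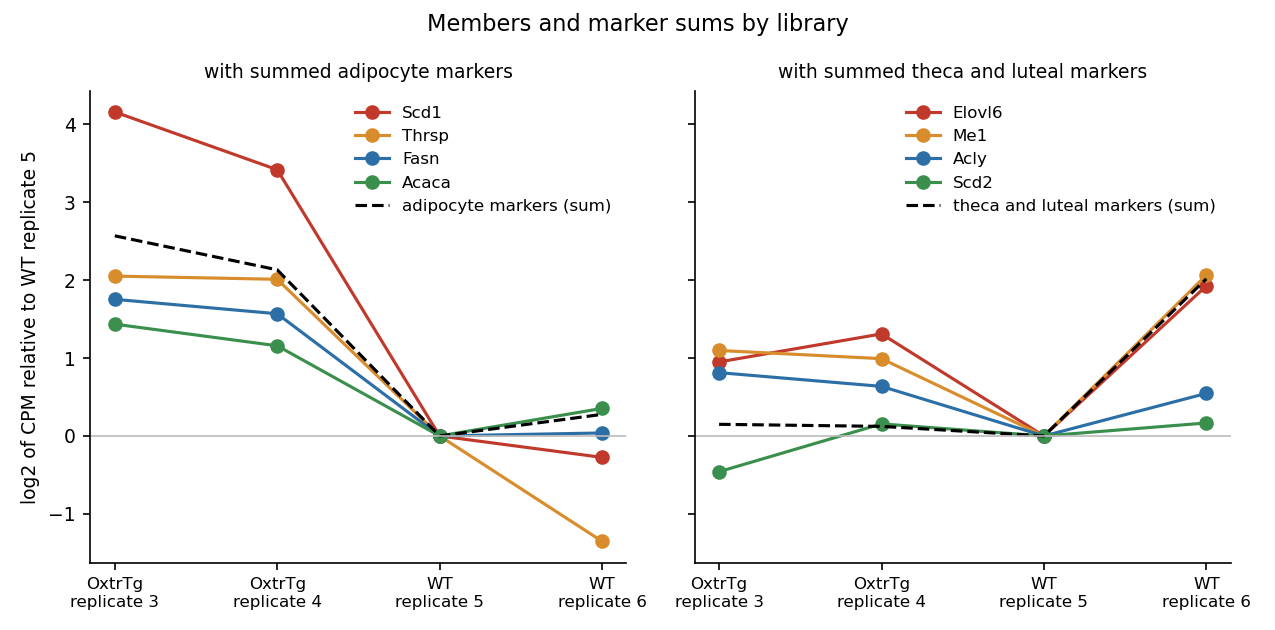
Log2 of CPM relative to WT replicate 5 for Scd1, Thrsp, Fasn and Acaca with the summed adipocyte markers (left) and for Elovl6, Me1, Acly and Scd2 with the summed theca and luteal markers (right); lines only join the points of a gene or sum. The adipocyte sum was 2952, 2181, 497 and 602 CPM and the theca and luteal sum 2541, 2495, 2291 and 9279 CPM in OxtrTg replicates 3 and 4 and WT replicates 5 and 6.

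The genes with the most similar levels across the 4 libraries were sought among 11175 genes with a mean of at least 10 CPM, by the distance between log2 profiles centred on their means. Nearest to Scd1 were Retn, Car3, Adipoq, Fabp4 and Pck1, at distances of 0.38 to 0.70, of which the first 4 are on the list of adipocyte markers. Retn, the resistin gene, stood at 67.0 and 39.1 CPM (OxtrTg) against 4.70 and 2.89 (WT). Pck1, the cytosolic PEP carboxykinase that supplies glycerol for fat storage, stood at 103 and 64.5 CPM (OxtrTg) against 10.2 and 5.52 (WT). Nearest to Fasn were Lpl, Agpat2, Fcrls, Cd36 and G0s2, at 0.18 to 0.41. Lpl, the lipase that releases fatty acids from lipoproteins, stood at 502 and 411 CPM (OxtrTg) against 125 and 137 (WT). A profile over 4 libraries is a short one, and these distances are a description.

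Genes that supply citrate, acetyl-CoA and NADPH lay mostly on the same side as Fasn. Of 10 such genes, 8 were higher in OxtrTg without overlap, beside 14.5% of all genes, and the median log2 difference was 0.34. edgeR called 0 of them over all genes, with 4 higher at an unadjusted p under 0.05, beside 2.12% of all genes. DESeq2 called 2 of them higher, beside 0.431% of all genes. Pcx, pyruvate carboxylase, which refills the oxaloacetate for citrate, was at 37.7 and 32.7 FPKM in OxtrTg and at 18.3 and 17.4 in WT (log2 difference 0.99 ± 0.11 SE, DESeq2 adjusted p = 1.36e-07, edgeR adjusted p = 0.452). Acss2, which makes acetyl-CoA from acetate, was at 3.94 and 3.35 FPKM in OxtrTg and at 1.43 and 1.70 in WT (log2 difference 1.23 ± 0.20 SE, DESeq2 adjusted p = 0.00207, edgeR adjusted p = 0.863). Among fits that dropped 1 library, DESeq2 kept Pcx without OxtrTg replicate 4 and without WT replicate 5 alone, and Acss2 in 0 of 4 fits. Mdh1, cytosolic malate dehydrogenase, overlapped between the genotypes at 73.1 and 83.7 against 76.4 and 88.2 FPKM.

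Other steps of chain building were listed in the same way, and no difference between lists was tested. Of 12 listed genes of the elongation cycle 11 were tested, with 2 higher in OxtrTg without overlap, beside 14.5% of all genes, and 0 lower, beside 11.7%. Of these 11 edgeR and DESeq2 called 0 in either direction (1 was higher at an unadjusted p under 0.05 in edgeR), and the median log2 difference was -0.03. Their most abundant members were Elovl5, an elongase of polyunsaturated chains, at 67.8 and 78.7 FPKM in OxtrTg and 79.4 and 95.9 in WT, and the dehydratase gene Hacd3 at 64.5 and 71.3 against 64.7 and 85.1. Of 6 other desaturase genes 1 was higher and 1 lower without overlap, and both tests called 0, with 0 at an unadjusted p under 0.05, and the median was -0.49. Fads2 was at 34.9 and 51.3 FPKM in OxtrTg and 45.6 and 84.0 in WT, and Fads1 at 30.5 and 35.6 against 37.0 and 51.1, both of them front-end desaturases of polyunsaturated chains and both highest in WT replicate 6. Fatty acid synthesis in mitochondria is a separate pathway with its own enzymes. Its 6 tested genes had 0 higher and 1 lower without overlap and log2 differences from -0.17 to 0.07, with Mcat at 9.04 to 10.96 and Mecr at 8.76 to 11.1 FPKM over the 4 libraries, and both tests called 0 (0 at an unadjusted p under 0.05).

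Among 14 regulators of lipogenesis both tests called 0 genes, and edgeR had 1 higher at an unadjusted p under 0.05. Without overlap, 5 were higher, beside 14.5% of all genes, and 1 lower, beside 11.7%. The median log2 difference was 0.03. The most abundant were Mid1ip1, a relative of Thrsp that binds acetyl-CoA carboxylase, at 44.1 and 59.4 FPKM in OxtrTg against 44.6 and 58.3 in WT, and the liver X receptor gene Nr1h2 at 32.5 and 30.7 against 31.1 and 30.7. Mlxipl, the gene of the glucose-responsive factor ChREBP, which was named after its values were seen, was at 6.85 and 4.40 FPKM in OxtrTg and at 2.72 and 3.33 in WT. Of 9 tested genes around malonyl-CoA both tests called 0 (0 at an unadjusted p under 0.05). Without overlap, 3 of them were higher, beside 14.5% of all genes, and 0 lower, beside 11.7%, with a median of 0.08. Cpt1a, the mitochondrial importer that malonyl-CoA inhibits, was at 29.2 and 24.0 FPKM in OxtrTg and at 21.4 and 37.1 in WT, and Prkab2, a subunit of the AMP-activated kinase that inhibits both carboxylases, at 24.9 and 17.4 against 19.1 and 19.7.

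Cholesterol synthesis shares acetyl-CoA with fatty acid synthesis and is driven mainly by SREBP-2, the product of Srebf2. Of 12 genes of cholesterol synthesis and uptake, 11 had a negative log2 difference and 5 were lower in OxtrTg without overlap, beside 11.7% of all genes. The median was -0.53, beside 0.37 over the 10 genes of fatty acid synthesis and desaturation, of which 3 had a negative log2 difference. Hmgcs1, which makes HMG-CoA, was at 25.6 and 23.2 FPKM in OxtrTg and at 27.8 and 45.4 in WT. It was highest in WT replicate 6. edgeR and DESeq2 called 0 of the 12, with 0 at an unadjusted p under 0.05 in edgeR.

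**Figure D4:**
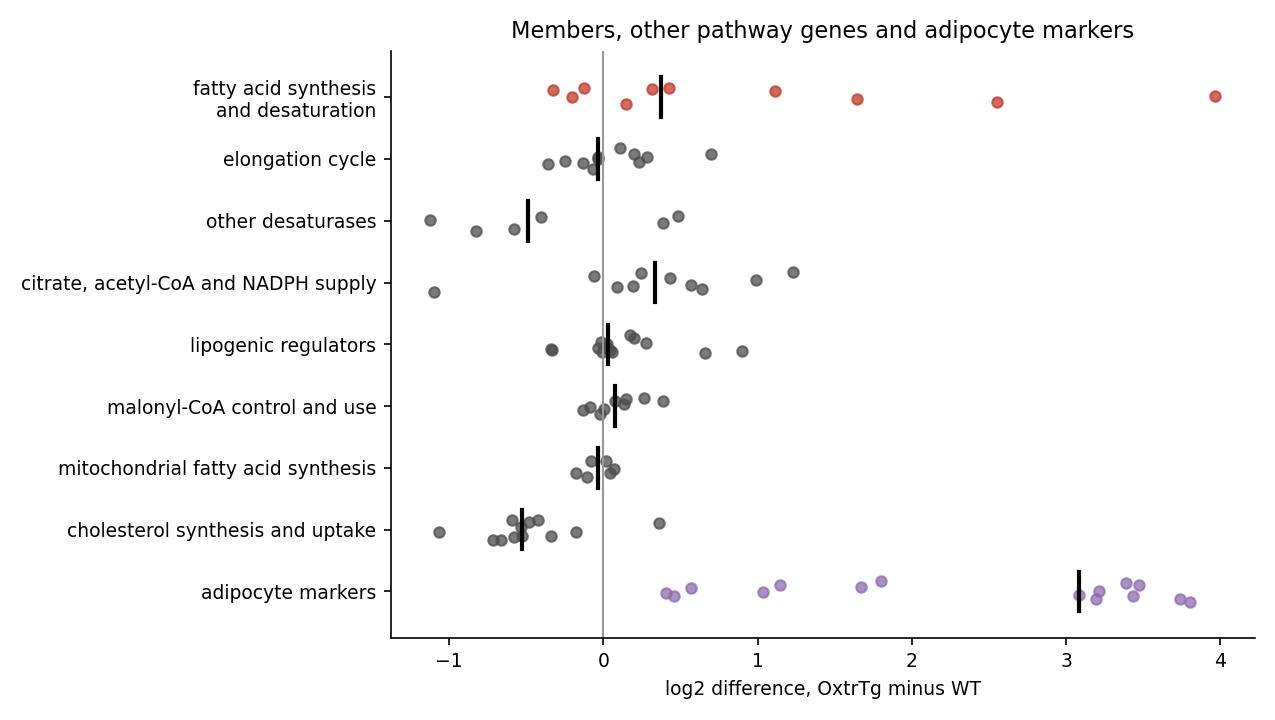
Log2 difference (OxtrTg minus WT) of every tested gene of each list, with a black bar at the list's median. The 10 genes of fatty acid synthesis and desaturation ran from -0.33 (Me1) to 3.97 (Scd1), cholesterol genes had a median of -0.53, and the 15 adipocyte markers had a median of 3.09.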

How the data were processed

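RNA sequencing of 4 ovary libraries was analysed from a single table of 21958 genes. The deposited read counts are raw whole numbers, per the file headers. The deposited FPKM values equal the count divided by the table's gene length and the library total, to within 0.00364%, per a check of the file headers against the values. The submitters' processing notes name mm10. Neither the aligner nor the counter, strand setting, read length or annotation is given in the sources used. Of the 21850 gene identifiers found in GENCODE M21 (GRCm38), 2.29% had the same start and end, and 0 of the 10 members did, so no position of the table is printed. Promoter positions are those of the RefSeq table on GRCm38.p6.

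Groups and replicate numbers came from the sample titles. Whether replicates are separate animals is not stated, so a p-value reflects the spread between libraries alone, which may be technical. Replicates differed beyond sampling noise (chi-square per degree of freedom 44.9 in OxtrTg and 43.2 in WT). Totals of 15229810 to 16517764 counts put 3 counts, the limit that a count of 0 allows, at 0.182 to 0.197 CPM.

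Counts were tested with the quasi-likelihood test of edgeR 4.0.16 in R 4.3.3, with TMM scaling and a filter at a minimum count of 10 that left 15311 genes. P-values were adjusted over all of these by Benjamini-Hochberg, with a threshold of 0.05. The SE beside a log2 difference is the size of that difference divided by the square root of the test's F statistic. It is thus derived from the test and is not a separate estimate. Alternatives were DESeq2 1.42.0, limma 3.58.1 (voom, and with trend on log2 of FPKM plus 1 or 0.1), other scalings and filters, and each library left out in turn. The tests were tested on simulated data with less spread between libraries than was fitted here, so that check does not measure their error rates in these data. The members and lists were chosen with earlier results of these data known. Named genes were the 10 members, Oxtr, the pathway genes called by a test, the 2 most abundant genes of each pathway list, set adipocyte markers, and the 5 genes nearest in profile to Scd1 and Fasn. Hsd17b8, on the mitochondrial list, was not analysed here, and some genes that the naming rule takes from the cholesterol list are not reported here.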

Additional observations from a re-analysis of the deposited data

How the results depend on the processing

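No paired analysis was possible because the replicate numbers (3 and 4, 5 and 6) are not shared between the groups. Over all genes edgeR called 0 higher and 0 lower. This was also the count under limma-voom, limma on FPKM, the other scalings and the other filters. DESeq2 called 66 higher and 3 lower. With each library left out in turn, edgeR called 0 to 7 genes higher and 0 to 58 lower, all of these without OxtrTg replicate 4. DESeq2 called 43 to 82 higher and 2 to 420 lower, with 43 higher without WT replicate 6. It called 420 lower without OxtrTg replicate 4, 77 without WT replicate 5 and 8 without OxtrTg replicate 3. The cause was not tested. The DESeq2 fits without a library, and the counts of members and pathway genes below, were added after the data were seen.

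Of the 10 members DESeq2 called 3 to 5 higher with a library left out, Me1 among them without WT replicate 6 although it was called lower without WT replicate 5, and of the pathway genes 0 to 3 in either direction, with 0 without OxtrTg replicate 3 or WT replicate 6. Those called lower included Sqle without OxtrTg replicate 4, and Idh1 and Hmgcs1 without WT replicate 5. Members with OxtrTg above WT in every remaining library numbered 6 to 9, and those with a log2 difference of at least 1 numbered 3 to 6. The share over all genes was not counted with a library left out. Groups separate more easily with fewer libraries, so nothing is read from these counts. The members' median log2 difference was 0.24 to 1.09, with 1.09 without WT replicate 6. The Scd1 to Scd2 log2 ratio differed between genotypes by 3.48 to 4.84 and that of Acaca to Acacb by 0.85 to 1.10, and each kept its value (4.16 and 0.98) with FPKM or no pseudocount. Direction turned for Elovl6 (-0.79 to 1.14, positive at 0.041 without OxtrTg replicate 3 and at 1.14 without WT replicate 6). It also turned for Scd2 (-0.55 to 0.068, positive without OxtrTg replicate 3) and for Me1 (-1.02 to 1.05, positive without WT replicate 6). Relative to a single adipocyte marker in place of the marker sum, the log2 ratio (OxtrTg minus WT) turned for Fasn from -0.57 to 1.15 with Pparg, 0.53 with Lipe, 0.61 with Pnpla2, 0.75 with Plin4 and 1.247 with Cebpa. For Acaca it turned from -1.09 to 0.63, 0.0091, 0.087, 0.23 and 0.72 with the same markers. For Scd1 it was 0.13 to 3.53, against 1.71 with the sum. No member turned under the 5 other scalings and filters. With 2 libraries in each group, the spread between libraries limits these values more than depth does.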
